A study of Mus musculus with 8 samples.

Results

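The genes described here are 39 enzymes, transporters and regulators of glycolysis, glycogen metabolism and glucose transport, taken by symbol from a gene count table of mouse quadriceps muscle. All 39 symbols were found among the 35494 symbols of the table, and all 39 passed the filter on low counts that left 14112 genes for testing. The table covers 8 male wild-type C57BL/6 mice that were 8 weeks old when the experiment began, with 1 mRNA library per mouse. In 4 mice, called scMC38, 1000000 MC38 cells were injected under the skin, and 4 mice, called control, received the same volume of PBS. MC38 is a mouse colorectal cancer cell line, and the implanted tumour is a model of mild cancer wasting (cachexia), per the series title. Muscle was collected after 28 days. Whole quadriceps was used, so a lower value cannot tell fewer fibres of a type from less mRNA per fibre.

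Glycolysis splits glucose into pyruvate in the cytosol, and skeletal muscle feeds it both from blood glucose, through insulin-responsive transporters, and from its own glycogen store. Fast-twitch fibres, which dominate the mouse quadriceps, depend on this route for bursts of contraction, while slow and oxidative fibres take up lactate and burn fat. Many steps are run by muscle-specific isoforms of the enzymes, such as Pgam2 and Eno3, whose counterparts Pgam1 and Eno1 are made in most other cells. Tumour-bearing animals often use glucose and lactate differently from healthy ones, and the comparison asks whether muscle mRNA of this route differed between mice with and without the tumour.

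The library totals ran from 50465092 to 62105453 estimated counts, and values below are in CPM, a gene's count per 1000000 counts of its library, after TMM scaling, which corrects for library composition. The 39 genes took 4.24 to 6.22% of all counts in controls and 4.69 to 5.67% in scMC38. Muscle genes were abundant in all 8 libraries (Acta1, skeletal actin, between 24367 and 35710 CPM), and 10 listed muscle fibre markers summed to 126368 to 172453 CPM in controls and 122140.0 to 169878 CPM in scMC38. The sum of 7 epithelial markers, which the carcinoma cells could carry, was at most 1.44 CPM in any library, with Epcam at most 0.0997 CPM. Libraries scMC38 1 and 3 stood apart: their 12 neutrophil and granule markers summed to 494 and 4459.9 CPM, against 13.8 and 38.97 CPM in scMC38 2 and 4 and 2.44 to 9.72 CPM in controls. Bone markers summed to 3003 CPM in scMC38 3, 37.9 to 235 CPM in the other scMC38 libraries and 121 to 245 CPM in controls. Fibroblast markers summed to 4333, 659 to 1287 and 1137 to 1655 CPM in the same order. Of the 8 fibroblast markers, 6 had a negative log2 fold change. In this list 1 was called lower and 2 lay lower without overlap (0.468% and 6.45% of all genes). Col1a1 is on both the bone and the fibroblast list. The mean log2 CPM of the fibroblast markers in scMC38 3 was 0.38 above the control mean. The part of these cells in the members' values was not tested. Controls 1 and 2 had the largest shares of mitochondrially encoded counts, at 24.3% and 29.7%, where the other 6 libraries had 14.4% to 18.9%. All 7 tested red blood cell markers were called higher, and the list summed to 501 to 1087 CPM in controls and 1644 to 2899.9 CPM in scMC38. Values without scMC38 1 and 3, or without controls 1 and 2, are given beside some of the genes they move.

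No gene of the 39 passed edgeR's test between groups, and 18 of them had a log2 fold change under 0.2 in size. The members with the smallest p were 3 enzymes of the part of glycolysis that handles 3-carbon sugars, Pgam2, Tpi1 and Eno3, whose mRNA lay lower in every tumour-bearing mouse than in any control, and the glucose transporter Slc2a3, which lay higher. With edgeR's quasi-likelihood test and Benjamini-Hochberg adjustment over all genes at 0.05, 0 of 39 were called, where 1.2% of all tested genes (170 of 14112) were, 0.737% higher and 0.468% lower. Limma-voom also called 0, and DESeq2 called 4, Pgam2, Tpi1 and Eno3 lower and Slc2a3 higher, which is 10.3% of the members where DESeq2 called 10.1% of all genes. At an unadjusted p under 0.05 edgeR had 6 members (15.4%), against 21.0% of all genes. The groups did not overlap for 5 members (12.8%), against 13.3% of all genes, so this share and that at p under 0.05 were below the background. By direction, 3 members lay lower (7.69%, against 6.45% of all genes) and 2 higher (5.13%, against 6.82%). The median log2 fold change was 0.02 over the 39 (17 negative, or 43.6%, where 49.8% of all genes were negative) and 0.0009 over all genes.

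**Figure D1:**
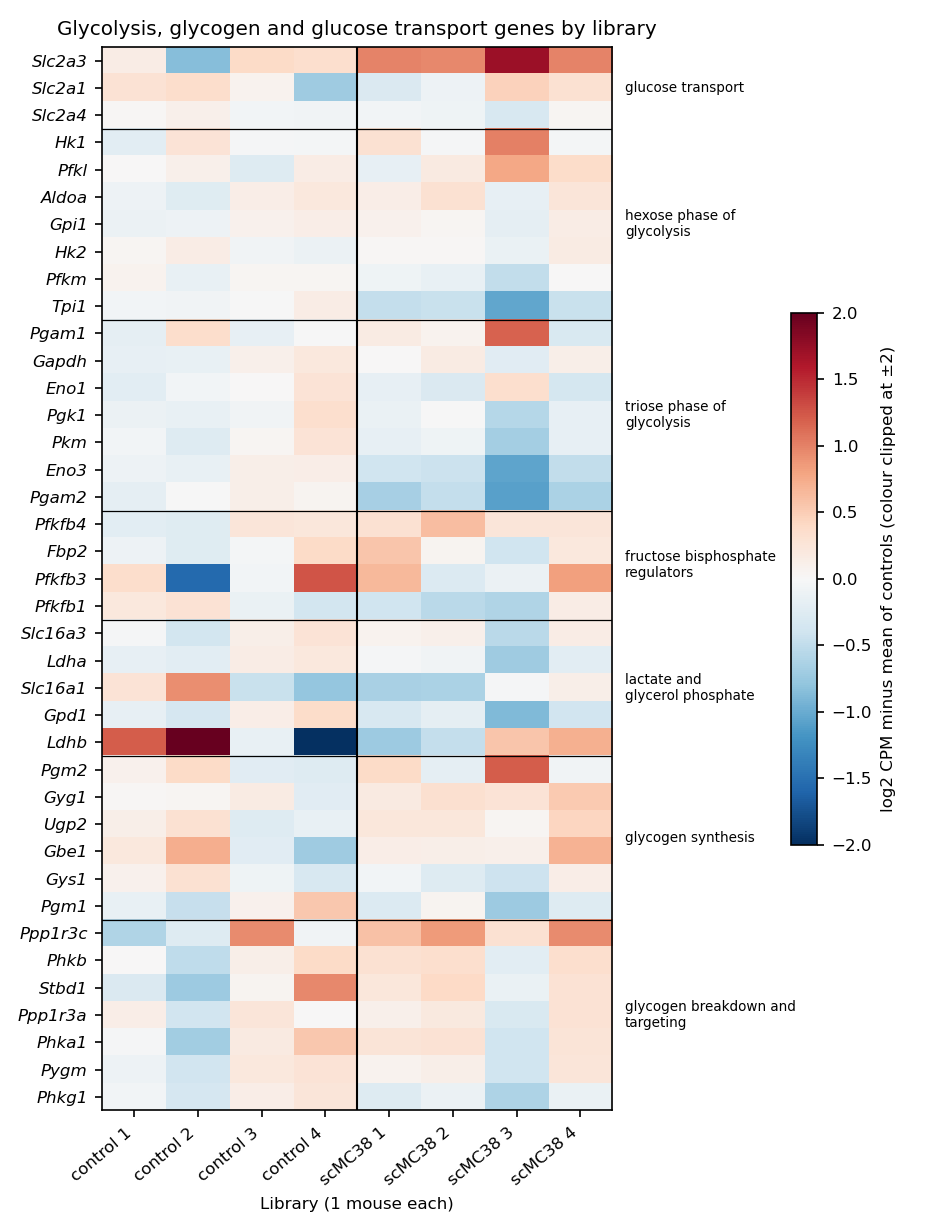
Each cell is the log2 CPM of 1 gene in 1 library minus the mean of the 4 controls, with genes in rows by role and libraries in columns; red is higher and blue lower than the control mean, clipped at 2 in either direction. Pgam2, Tpi1 and Eno3 are blue in all 4 scMC38 libraries and darkest in scMC38 3, Slc2a3 is red in all 4, and Ldhb runs from the strongest red in control 2 to the strongest blue in control 4.

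The precision of these comparisons differed widely between genes. The coefficient of variation between control mice had a median of 18.2% over the 39 genes, lay under 20% for 24 of them, and ran from 5.75% for Slc2a4 to 97.5% for Ldhb. For 31 of the 39 genes the 95% interval of the log2 fold change lay within a 2-fold change in either direction, and for 13 within a 1.5-fold change. The sign of the log2 fold change turned for 13 members without controls 1 and 2 and for 4 without scMC38 1 and 3, none of which was among the 6 with the smallest p. A missed threshold does not show equal levels, and the median interval reached 0.43 on the log2 scale to either side.

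**Figure D2:**
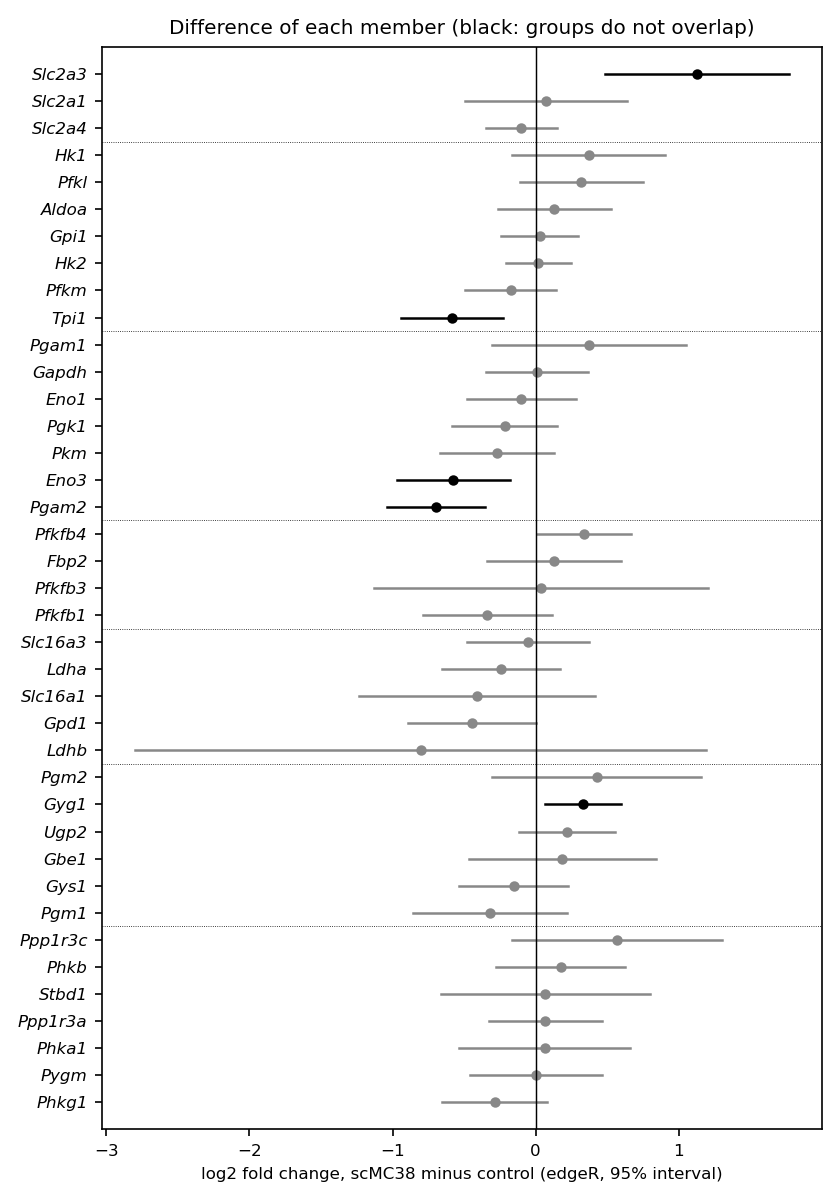
Points are log2 fold changes of scMC38 minus control from edgeR with 95% intervals (4 mice per group), grouped by role with dotted lines between groups; black marks the 5 genes whose groups do not overlap. The intervals of Pgam2, Tpi1 and Eno3 lie below 0, those of Slc2a3, Gyg1 and Pfkfb4 above 0, and the interval of Ldhb is the widest.

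Pgam2 encodes the muscle form of phosphoglycerate mutase, which moves the phosphate group between carbons on the way to pyruvate. Its CPM was 1529.8, 1725, 1878 and 1789 in controls 1 to 4 and 1091, 1246, 814 and 1117 in scMC38 1 to 4. Every tumour-bearing mouse was below every control, with scMC38 3 the lowest. The means were 1730.3 ± 148 and 1067 ± 182 CPM (SD, n = 4), with a difference that did not pass (log2 fold change -0.70, SE 0.15, adjusted p = 0.0713). Without scMC38 1 and 3 together the value was -0.53 (adjusted p = 0.148). It was -0.79 when both controls with large mitochondrial shares were left out (adjusted p = 0.268).

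Tpi1 encodes triosephosphate isomerase, which converts the pair of sugars made by aldolase into each other. It measured 1681, 1661, 1744 and 1935 CPM in controls and 1262, 1285, 852 and 1284 CPM in scMC38. Values of scMC38 1, 2 and 4 lay close together and under the lowest control, and scMC38 3 lay lower still (log2 fold change -0.58, SE 0.16, adjusted p = 0.0971). Without scMC38 3 the log2 fold change was -0.46 (adjusted p = 0.0929), and -0.43 without both scMC38 1 and 3 (adjusted p = 0.188).

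Eno3 encodes beta-enolase, the muscle enolase that makes phosphoenolpyruvate. Its values were 3429, 3333, 4024 and 4059 CPM in controls and 2806, 2749, 1775 and 2638 CPM in scMC38. The groups again did not overlap, and scMC38 3 was again the lowest (log2 fold change -0.57, SE 0.17, adjusted p = 0.123). With scMC38 3 left out the difference was -0.44 (adjusted p = 0.129), and -0.44 without both scMC38 1 and 3 (adjusted p = 0.237).

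**Figure D3:**
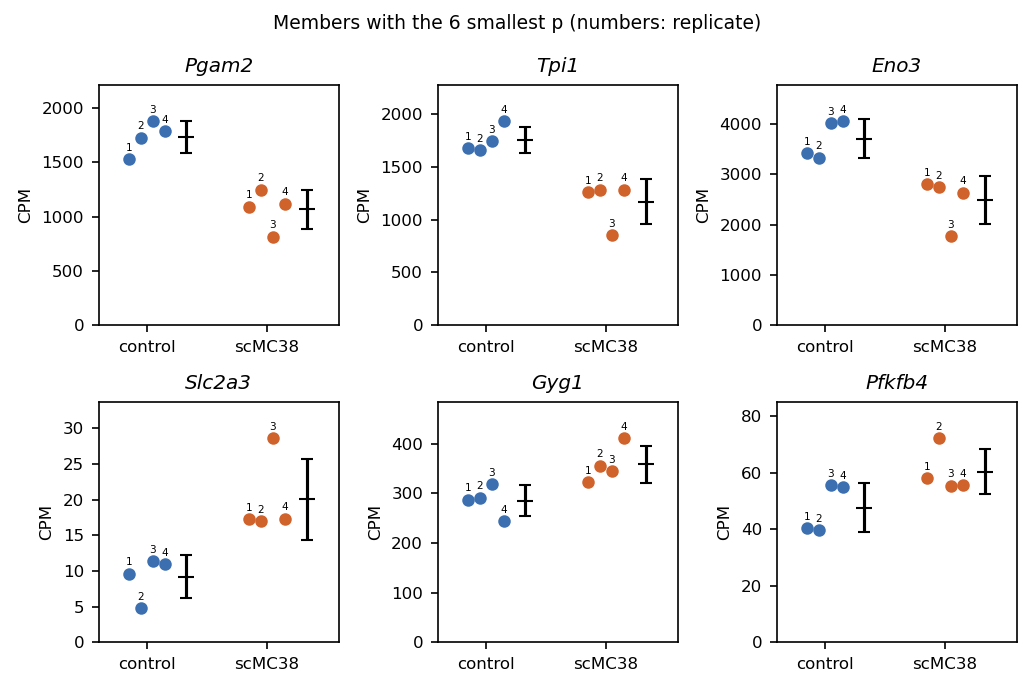
Points are CPM per library, numbered by replicate, for the 6 members with the smallest p, with the mean and SD (n = 4) as a bar beside each group and axes from 0. Pgam2, Tpi1 and Eno3 are lower and Slc2a3 and Gyg1 higher in every scMC38 library than in any control, while the groups of Pfkfb4 overlap.

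The groups overlapped for the enzymes next to these steps. Aldoa, the muscle aldolase and the most abundant member, measured 13081, 11824, 15365 and 16199.7 CPM in controls and 15323, 17274, 12524 and 16655 CPM in scMC38 (log2 fold change 0.13, SE 0.17, adjusted p = 0.697). Gapdh, which oxidises the triose sugar, measured 8318, 8455, 9947 and 10790.5 CPM in controls and 9332, 10425, 7941 and 10094 CPM in scMC38, and the groups overlapped fully (log2 fold change 0.01, SE 0.16, adjusted p = 0.977). The 95% interval for Gapdh ran from -0.35 to 0.37. Pgk1, phosphoglycerate kinase, stood at -0.22, SE 0.16, adjusted p = 0.465.

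Pgam2, Tpi1 and Eno3 were also set against 3 other abundant members in the same library, a ratio that does not depend on how libraries are scaled. Pgam2 per Aldoa was 0.11 to 0.146 in controls and 0.065 to 0.0722 in scMC38, so the highest tumour-bearing mouse was 0.0722 and the lowest control 0.11. Library scMC38 3 was the lowest of the 8 for each of the 3 genes relative to Aldoa and to Gapdh, and scMC38 4 was relative to Pygm. Tpi1 per Aldoa was 0.114 to 0.141 in controls and 0.068 to 0.0823 in scMC38, and Eno3 per Aldoa was 0.251 to 0.282 and 0.142 to 0.183. Against Gapdh, the ranges were 0.166 to 0.204 and 0.102 to 0.12 for Pgam2, and against Pygm, the muscle glycogen phosphorylase, they were 0.229 to 0.35 and 0.146 to 0.179. The reference genes were chosen after the values had been seen, so these ratios are a description with no test.

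The same description was made for all members and for all genes. Relative to Gapdh, 6 of the other 38 members lay lower in every scMC38 library than in any control (15.8%, against 3.54% of all tested genes). They were Eno3, Pgam2, Tpi1, Gpd1, Phkg1 and Pkm. Relative to Pygm the same 6 and Ldha were lower (18.4%, against 1.96%), and relative to Aldoa 11 were (28.9%, against 6.36%). The reference genes are members themselves, so members that vary with them between libraries can separate more easily than other genes. These shares are therefore no test of the members. Without ratios, 12.8% of members and 13.3% of all genes did not overlap in either direction. Slc2a3 lay higher relative to each of the 3 reference genes, alone relative to Aldoa (2.63%, against 1.71%) and Pygm (2.63%, against 2.17%) and with Aldoa relative to Gapdh (5.26%, against 3.48%).

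**Figure D4:**
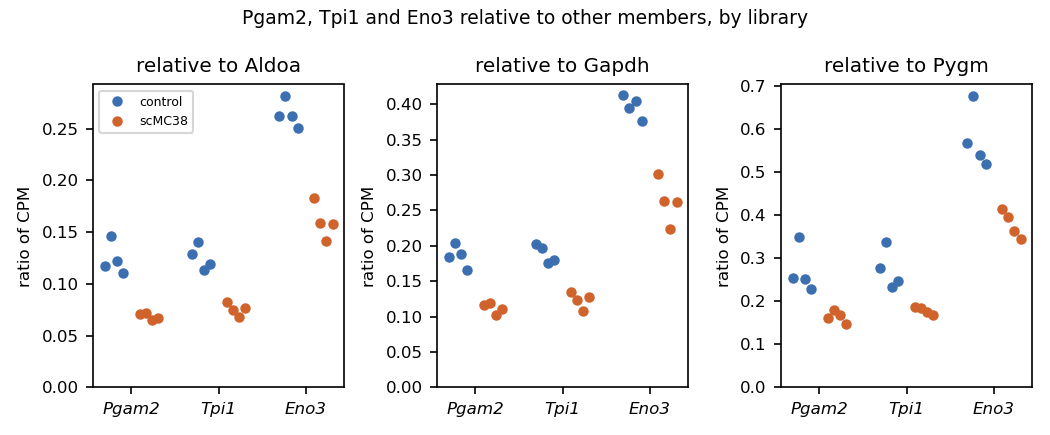
Points are ratios of CPM in 1 library, for Pgam2, Tpi1 and Eno3 relative to Aldoa, Gapdh and Pygm, with controls in blue and scMC38 in orange and axes from 0. In all 9 comparisons the 4 scMC38 points lie below the 4 control points, for example at most 0.0722 against at least 0.11 for Pgam2 per Aldoa.

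The upstream sequences of these 3 genes are shown because these were the members that lay lower in every tumour-bearing mouse. They are the 250 bases before each annotated start, read on the strand of the gene from RefSeq (GRCm38.p6, an earlier build than the GRCm39 named for the counts). Capitals mark every E-box (CANNTG, the core bound by myogenic factors and many other helix-loop-helix proteins, the same on both strands) and every match to the MEF2 motif, searched on both strands. The windows are chr11:5803797-5804046 (minus strand) for Pgam2, chr11:70656926-70657175 (plus strand) for Eno3 and chr6:124814159-124814408 (minus strand) for Tpi1.
Pgam2: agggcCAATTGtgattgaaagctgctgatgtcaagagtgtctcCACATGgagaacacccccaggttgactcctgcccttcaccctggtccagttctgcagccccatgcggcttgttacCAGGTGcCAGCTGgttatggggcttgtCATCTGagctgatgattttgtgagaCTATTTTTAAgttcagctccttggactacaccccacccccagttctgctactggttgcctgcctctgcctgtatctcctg
Eno3: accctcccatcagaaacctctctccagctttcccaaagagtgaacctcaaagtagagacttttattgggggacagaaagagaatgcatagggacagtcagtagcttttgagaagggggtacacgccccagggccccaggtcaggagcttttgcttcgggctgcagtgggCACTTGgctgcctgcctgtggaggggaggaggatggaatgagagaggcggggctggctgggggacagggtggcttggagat
Tpi1: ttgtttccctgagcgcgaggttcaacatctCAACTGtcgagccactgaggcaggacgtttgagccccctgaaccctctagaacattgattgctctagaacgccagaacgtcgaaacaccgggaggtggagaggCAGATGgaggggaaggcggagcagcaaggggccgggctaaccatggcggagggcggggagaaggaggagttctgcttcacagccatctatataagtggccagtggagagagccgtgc

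Pgam2 held 5 E-boxes, 2 of them separated by a single base, and 1 MEF2 match that begins at position -80, counting back from -1 at the last base before the start. Eno3 held 1 E-box and Tpi1 2, and neither held a MEF2 match. Over all genes in the table of promoters, 69.3% held an E-box and 3.42% a MEF2 match in such a window. Among the 36 members with an entry the shares were 75.0% and 8.33%. A gene was counted, here and below, if any of its windows held the motif. The 36 members had 51 windows and all 27025 genes had 32851. Members thus had more windows per gene, and their shares are not fully comparable with those of all genes. The core of the hypoxia response element, ACGTG on either strand, was in a window of 17 of these 36 members (47.2%) and of 18.5% of all genes. It was in none of the 3 printed windows. Where ACGTG is part of CACGTG it is also an E-box. The 17 members that hold it had a median log2 fold change of 0.02, against 0.03 for the 19 that do not.

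Of the 3 glucose transporters, 2 overlapped between groups and Slc2a3 did not. Slc2a3 encodes GLUT3, a high-affinity transporter best known from neurons and white blood cells. It measured 9.61, 4.80, 11.3 and 10.9 CPM in controls and 17.3, 16.95, 28.6 and 17.3 CPM in scMC38. All 4 tumour-bearing mice were above all controls, with scMC38 3 far above the other 3 (log2 fold change 1.13, SE 0.28, adjusted p = 0.0882). The neutrophil and granule markers were highest in scMC38 3 as well: 10 of 12 were tested, 10 were positive and 0 called, and they summed to 494, 13.8, 4459.9 and 38.97 CPM in scMC38 1 to 4. Elane and Mpo, which mark immature granulocytes, were at most 0.138 CPM in controls and in scMC38 2 and 4. All 12 macrophage markers were positive and 0 called, with sums of 130.0 to 181 CPM in controls and 451, 288, 638 and 145 CPM in scMC38. Red blood cell markers summed to 2639.5, 1668, 2899.9 and 1644 CPM in scMC38 1 to 4, also highest in scMC38 3. The part of these cells in the Slc2a3 values was not tested. Without scMC38 1 and 3 its log2 fold change was 0.92 (adjusted p = 0.207), and without controls 1 and 2 it was 0.84 (adjusted p = 0.362).

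Slc2a4 encodes GLUT4, the insulin-responsive transporter of muscle, and was the least variable member in controls. It measured 629.9, 662, 591 and 587 CPM in controls and 596, 578, 495 and 636 CPM in scMC38. The groups overlapped and the 95% interval of the log2 fold change ran from -0.35 to 0.15 (log2 fold change -0.10, SE 0.11, adjusted p = 0.629). Slc2a1, which encodes the basal transporter GLUT1, measured 10.6, 11.1, 9.14 and 5.34 CPM in controls and 7.15, 8.08, 12.05 and 10.8 CPM in scMC38, with overlapping groups (log2 fold change 0.07, SE 0.25, adjusted p = 0.894, and 0.38 without controls 1 and 2).

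Glucose is trapped in the cell by hexokinase and committed to glycolysis by phosphofructokinase, and the muscle forms of both lay close to control. Hk2, the muscle hexokinase, measured 257, 278, 239 and 232 CPM in controls and 254, 256, 229 and 281 CPM in scMC38 (log2 fold change 0.02, SE 0.10, adjusted p = 0.932). Its 95% interval ran from -0.21 to 0.24, the narrowest of the 39. Pfkm, the muscle phosphofructokinase, measured 2855, 2438, 2780.2 and 2775 CPM in controls and 2543, 2430.0, 1915 and 2722 CPM in scMC38, with scMC38 3 the lowest (log2 fold change -0.18, SE 0.14, adjusted p = 0.499). Gpi1, which converts glucose phosphate to fructose phosphate, stood at 0.03, SE 0.12, adjusted p = 0.919.

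Hk1, Pfkl, Pgam1 and Pgm2, which many other cells use, were low and were highest in scMC38 3. Hk1 measured 11.7, 16.4, 13.2 and 13.1 CPM in controls and 16.6, 13.2, 27.1 and 13.2 CPM in scMC38 (log2 fold change 0.37, SE 0.24, adjusted p = 0.392). Pfkl, the liver-type phosphofructokinase, measured 9.46, 10.1, 7.90 and 10.4 CPM in controls and 8.42, 10.6, 16.01 and 12.1 CPM in scMC38 (log2 fold change 0.32, SE 0.19, adjusted p = 0.358). Pgam1 was at 42.7 CPM and Pgm2, a phosphoglucomutase, at 6.48 CPM in scMC38 3, against at most 24.3 and 3.65 CPM in the other 7 libraries. Without scMC38 1 and 3 the log2 fold change of Hk1 was -0.02, of Pgam1 -0.10 and of Pgm2 -0.12. Pfkl was at 0.13 without scMC38 3 and at 0.29 without scMC38 1 and 3. Eno1, the counterpart of Eno3, was also highest in scMC38 3, at 96.9 CPM, against 65.9 to 92.3 CPM in controls. Its log2 fold change was negative (-0.10, SE 0.17, adjusted p = 0.764, and -0.31 without scMC38 1 and 3). The white blood cell markers given above were highest in the same library, and their part in these values was not tested.

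Muscle and general isoforms were also compared within each library. Per kilobase of the longest coding transcript in GENCODE vM21, Pfkm was on average 377 times, Pgam2 195 times, Slc2a4 94.7 times, Eno3 62.8 times and Hk2 14.5 times as abundant as its counterpart in controls. The log2 ratio of Pgam1 to Pgam2 was -6.51, -6.15, -6.80 and -6.57 in controls and -5.68, -5.97, -4.25 and -6.18 in scMC38. Only scMC38 4 lay within the control range, and the group difference was 0.99 (exact permutation test, two-sided, p = 0.0571, adjusted p = 0.2 over 7 ratios). Eno1 to Eno3 differed by 0.48 (exact permutation p = 0.0571, adjusted p = 0.2). Without scMC38 3 these differences were 0.56 and 0.17. The ratios of Pfkl to Pfkm (0.47, exact permutation p = 0.171), Hk1 to Hk2 (0.29, exact permutation p = 0.486) and Slc2a1 to Slc2a4 (0.20, exact permutation p = 0.514) did not pass either. The smallest p this design allows is 0.0286. After adjustment over 7 ratios a single ratio at that p could not have passed, so no conclusion is drawn from these tests.

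The last step to pyruvate and its exit as lactate showed no difference that passed the test. Pkm, pyruvate kinase, whose splice forms the gene counts do not separate, measured 2827, 2457, 3007 and 3557 CPM in controls and 2615, 2757, 1842 and 2609.7 CPM in scMC38 (log2 fold change -0.27, SE 0.17, adjusted p = 0.398). Ldha, the lactate dehydrogenase subunit of fast muscle, measured 1815, 1755, 2248 and 2347 CPM in controls and 1994, 1937, 1240.4 and 1742 CPM in scMC38 (log2 fold change -0.24, SE 0.18, adjusted p = 0.472). In both genes scMC38 3 was the lowest library and the other 3 tumour-bearing mice lay within or near the control range. Gpd1, the cytosolic glycerol phosphate dehydrogenase that links glycolysis to lipid synthesis, measured 619, 549, 765 and 891 CPM in controls and 553, 612, 377 and 533 CPM in scMC38 (log2 fold change -0.45, SE 0.20, adjusted p = 0.238). Slc16a3, the lactate exporter MCT4, stood at -0.05, SE 0.19, adjusted p = 0.904.

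Ldhb and Slc16a1 varied more between control mice than between groups. Ldhb encodes the heart-type subunit that favours lactate use, and measured 189, 359, 73.4 and 8.85 CPM in controls and 49.2, 58.9, 119 and 134 CPM in scMC38. Its control values spanned 40.6-fold, and the scMC38 values all lay inside that span (log2 fold change -0.80, SE 0.87, adjusted p = 0.627). The log2 fold change was 1.12 without control 1 and 2 and -0.80 with all libraries, and neither passed (adjusted p = 0.621 and 0.627). It also depended on the method: with all libraries, limma-voom gave 0.02 and edgeR with a block for replicate number gave -0.24. Slc16a1, the lactate transporter MCT1 of oxidative fibres, measured 43.4, 68.6, 26.4 and 20.9 CPM in controls and 22.9, 23.03, 35.3 and 38.7 CPM in scMC38 (log2 fold change -0.41, SE 0.36, adjusted p = 0.544). Without control 2 its log2 fold change was -0.01, and without controls 1 and 2 it turned to 0.33 (adjusted p = 0.635). Ldhb and Slc16a1 placed the 8 libraries in the same order, from control 2 at the top through control 1, scMC38 4, scMC38 3, control 3, scMC38 2 and scMC38 1 to control 4.

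Myoglobin (Mb), the oxygen store of oxidative fibres and a gene outside the 39 that was compared after its values were seen, gave that order as well. Mb measured 2144, 4409, 904 and 192 CPM in controls and 649.6, 728, 1201 and 1401 CPM in scMC38. The 8 slow fibre markers summed to 107, 1139.8, 338 and 43.5 CPM in controls 1 to 4 and 259, 43.05, 70.5 and 189.9 CPM in scMC38 1 to 4, with 8 of 8 negative and 0 called. Myh7, the slow myosin, ran from 0.0378 CPM in scMC38 2 and 0.0546 CPM in control 4 to 185 CPM in control 2. The 11 fast fibre markers summed to 100597 to 149473 CPM in controls and 99343 to 142722 CPM in scMC38. Of these 11, 4 were positive, 7 negative and 0 called. EdgeR had 3 at an unadjusted p under 0.05 (21.0% of all genes were), and 1 lay lower without overlap (6.45% of all genes did). Myh1, a fast myosin among them, ran from 386 CPM in control 4 to 5306 CPM in control 2, a 13.75-fold span. Its highest libraries were control 2, scMC38 4 and control 1. The part of fibre makeup in the values of Ldhb and Slc16a1 was not tested.

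**Figure D5:**
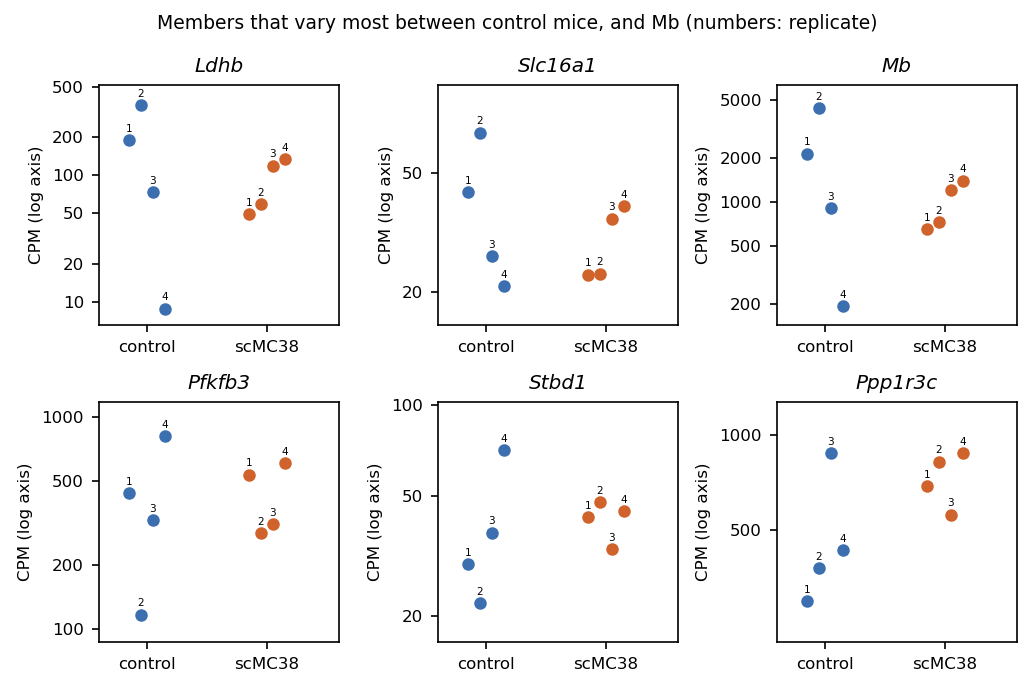
Points are CPM per library on a log axis, numbered by replicate, for the 5 members with the largest coefficient of variation between controls and for Mb. Ldhb, Slc16a1 and Mb place the libraries in the same order, Pfkfb3 and Stbd1 are highest in control 4 and lowest in control 2, and scMC38 values lie within the control range for all but the highest Ppp1r3c value.

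Enzymes of the Pfkfb family make and remove the fructose bisphosphate that helps set the pace of phosphofructokinase. Pfkfb3, the inducible member of this bifunctional family, measured 434, 116, 326 and 812 CPM in controls and 534, 282, 312 and 602 CPM in scMC38. Controls spanned 6.98-fold, with control 2 the lowest and control 4 the highest of all 8 libraries (log2 fold change 0.04, SE 0.51, adjusted p = 0.977, and -0.41 without controls 1 and 2). Pfkfb4 measured 40.4, 39.7, 55.5 and 54.96 CPM in controls and 58.03, 72.1, 55.4 and 55.6 CPM in scMC38, where scMC38 3 fell just inside the control range (log2 fold change 0.34, SE 0.15, adjusted p = 0.227). Pfkfb1, the form of liver and muscle, measured 46.5, 48.8, 36.8 and 30.97 CPM in controls and 30.6, 27.7, 26.4 and 44.4 CPM in scMC38. Only scMC38 4 was not below every control (log2 fold change -0.34, SE 0.20, adjusted p = 0.36). Fbp2, the muscle fructose bisphosphatase, stood at 0.13, SE 0.21, adjusted p = 0.756.

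Of the 6 genes that build glycogen, 4 had a positive log2 fold change and none was called. Gyg1 encodes glycogenin, the protein primer on which a glycogen particle starts. It measured 288, 292, 319 and 244 CPM in controls and 322, 356, 345 and 411 CPM in scMC38. The groups did not overlap, although scMC38 1 exceeded the highest control by little (log2 fold change 0.33, SE 0.12, adjusted p = 0.163). Gys1, the muscle glycogen synthase, measured 487, 566, 429.8 and 368 CPM in controls and 438, 383, 341 and 502 CPM in scMC38, with overlapping groups (log2 fold change -0.15, SE 0.17, adjusted p = 0.629, and 0.05 without controls 1 and 2). Ugp2, which makes the UDP-glucose donor (0.22, SE 0.15, adjusted p = 0.425), the branching enzyme gene Gbe1 (0.19, SE 0.29, adjusted p = 0.739) and Pgm1, the main phosphoglucomutase of muscle (-0.32, SE 0.24, adjusted p = 0.461), did not pass.

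Glycogen breakdown starts with Pygm, whose enzyme releases glucose phosphate from the particle, and its means in both groups were close. It measured 6051, 4928, 7457 and 7829 CPM in controls and 6785, 6972, 4875 and 7649.6 CPM in scMC38 (means 6566 ± 1334 and 6570.2 ± 1189.5 CPM, SD, n = 4). The 95% interval of its log2 fold change ran from -0.46 to 0.46, which spans changes of up to 1.38-fold in either direction. Without controls 1 and 2 the log2 fold change of Pygm was -0.23. Phosphorylase kinase, which switches Pygm on, has the catalytic subunit Phkg1 in muscle. Phkg1 measured 473, 388, 539 and 581 CPM in controls and 408, 452, 319 and 445 CPM in scMC38 (log2 fold change -0.29, SE 0.16, adjusted p = 0.336). Its regulatory subunit genes Phka1 (0.06, SE 0.26, adjusted p = 0.917, and -0.26 without controls 1 and 2) and Phkb (0.17, SE 0.20, adjusted p = 0.646) did not pass.

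Ppp1r3c encodes PTG, which brings a phosphatase to glycogen and favours its synthesis. It measured 299, 380.2, 872 and 432 CPM in controls and 686, 821, 559.8 and 875 CPM in scMC38. Control 3 was as high as the tumour-bearing mice, while the other 3 controls lay below all of them (log2 fold change 0.57, SE 0.32, adjusted p = 0.34). The value depended on which controls were used: it was 0.99 without control 3 (adjusted p = 0.111), 0.39 without control 1 (adjusted p = 0.569) and 0.16 without controls 1 and 2 (adjusted p = 0.856). Ppp1r3a, the muscle glycogen-targeting subunit, stood at 0.07, SE 0.17, adjusted p = 0.851, and Stbd1, which tethers glycogen to membranes, at 0.07, SE 0.32, adjusted p = 0.927.

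Other genes of the pathway, 119 as listed, were taken from 5 lists by role. EdgeR called 2 of them and DESeq2 14, and the shares of all tested genes were 1.2% and 10.1%. Of 20 tested glucose transport genes 0 were called, with 7 at an unadjusted p under 0.05 (21.0% of all genes were). The groups did not overlap for 5 higher and 1 lower (6.82% and 6.45% of all genes). Those with the smallest p were Aspscr1, which encodes the GLUT4 tether TUG (0.43, SE 0.10, adjusted p = 0.0757), Slc2a6, below 1 CPM in most libraries (3.56, SE 0.87, adjusted p = 0.0849), and Tbc1d4, the AS160 protein through which insulin releases GLUT4 (0.69, SE 0.17, adjusted p = 0.0857). Tbc1d4 measured 47.5, 55.6, 48.1 and 31.6 CPM in controls and 80.6, 66.1, 65.3 and 82.9 CPM in scMC38.

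Of 23 other glycolysis genes, 24 other glycogen genes and 8 pentose phosphate genes, 0 were called in each list. At an unadjusted p under 0.05 there were 3, 3 and 2, where 21.0% of all genes were. In the first list Hk3, the hexokinase of white blood cells, measured 3.56, 0.606, 19.99 and 0.611 CPM in scMC38 1 to 4 and at most 0.68 CPM in controls (3.66, SE 1.15, adjusted p = 0.131), and Emb, a partner of lactate transporters, stood at 2.06, SE 0.65, adjusted p = 0.131. Both were highest in scMC38 3, where the neutrophil markers were highest. Mpc2, a subunit of the mitochondrial pyruvate carrier, stood at -0.46, SE 0.20, adjusted p = 0.228. Among glycogen genes the smallest p belonged to Gaa, the lysosomal glucosidase (0.44, SE 0.15, adjusted p = 0.151), the kinase gene Gsk3b (0.36, SE 0.12, adjusted p = 0.152) and Ppp1r3b (1.12, SE 0.44, adjusted p = 0.194). All 8 pentose phosphate genes were positive, as were 50.2% of all genes, with Rpe (0.24, SE 0.10, adjusted p = 0.226), Pgd (0.84, SE 0.36, adjusted p = 0.227) and Tkt (0.76, SE 0.41, adjusted p = 0.32) leading. Their summed level was 201, 197, 227 and 304 CPM in controls and 271, 279, 398 and 257 CPM in scMC38. It was highest in scMC38 3, where white blood cell markers peaked, and control 4 exceeded the other 3 scMC38 libraries. The part of those cells was not tested.

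Among 35 listed regulators of glycolytic genes, Hif1a was called higher and Nr4a3 lower (0.737% and 0.468% of all genes were). At an unadjusted p under 0.05 edgeR had 12 of the 35, where 21.0% of all genes were. The groups did not overlap for 5 higher and 1 lower (6.82% and 6.45% of all genes). Hif1a encodes the oxygen-sensing transcription factor that switches on glycolytic genes in hypoxia. It measured 22.5, 20.5, 24.3 and 22.9 CPM in controls and 31.7, 37.3, 41.4 and 32.3 CPM in scMC38 and the groups did not overlap (log2 fold change 0.66, SE 0.10, adjusted p = 0.0309). Nr4a3 encodes an orphan nuclear receptor that contraction induces in muscle. It measured 16.9, 19.1, 11.02 and 9.98 CPM in controls and 2.18, 2.31, 1.61 and 3.39 CPM in scMC38 (log2 fold change -2.59, SE 0.29, adjusted p = 0.0162). Hif1a kept its call without scMC38 1, 3 or 4 and lost it without any of the controls or scMC38 2 (adjusted p up to 0.107), and Nr4a3 lost it without control 1 (adjusted p = 0.078). Without scMC38 1 and 3 together the values were 0.65 (adjusted p = 0.0568) and -2.30 (adjusted p = 0.0533). Without controls 1 and 2 they were 0.59 (adjusted p = 0.249) and -2.16 (adjusted p = 0.138).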

How the data were processed

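Per the labels' protocols, quadriceps RNA was isolated with an RNeasy Mini kit and libraries came from a Universal Plus mRNA-seq kit. Salmon 1.10.3, R 4.4.3, MultiQC 1.30, fastp 1.0.1, FastQC 0.12.1 and the build GRCm39 appear in the submitters' processing notes, which assign them no roles. The annotation and any use of strand are not stated in the labels or the file header. What the authors deposited is 1 table of estimated counts by gene symbol, with 49.3% of nonzero values fractional. Reads shared by near-identical genes (Eno1 and Eno1b, and retrocopies of Gapdh, Aldoa, Pgk1, Pgam1 and Ldha) may have been divided between them, so these genes are less certain. Of 35667 rows, 144 had no symbol and were left out (0.0027% to 0.00403% of counts), and rows of 26 repeated symbols were summed. The rounded counts went into edgeR 4.0.16 under R 4.3.3 (low counts removed by filterByExpr with a minimum count of 10 and minimum total of 15, TMM, robust quasi-likelihood F test, no covariate, Benjamini-Hochberg over all 14112 genes, threshold 0.05). The common biological coefficient of variation was 27.3%. SEs and 95% intervals follow from the F statistic. Isoform ratios used log2 CPM with a prior count of 2 and exact permutation over 70 assignments. The fit was tested on simulated data with the same dispersion for every gene and larger fold changes than those of Pgam2, Tpi1 and Eno3. That test does not show how differences of their size are recovered. All pairs of libraries in a group differed far beyond counting noise, and p-values rest on the spread between these mice. Mice were randomized and group-housed, per the series design. No litter or cage is named, so a shared cage or litter could not be taken into account. Alternatives were DESeq2 1.42.0, limma-voom (limma 3.58.1), other scalings and filters, and leaving out libraries.

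The members and lists were chosen with earlier results of these data known. Values in every library are given for the 12 members with the smallest p and for Slc2a4, Slc2a1, Slc2a3, Hk2, Pfkm, Pfkfb3, Pygm, Gys1, Ldha, Pkm and Gapdh, and for called genes of the other lists. Up to 3 genes with the smallest p from each list without a call are named, most with a fold change alone. Aldoa, Ldhb, Slc16a1, Pgam1, Pgm2 and Mb were added after their values were seen. Promoters were matched by symbol for 36 of the 39 genes.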

Additional observations from a re-analysis of the deposited data

Results flagged for a closer look

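In 92 groups of 4 values (39 genes and 7 isoform ratios in each group of mice), 12 held a library farther from the other 3 than Dixon's 95% critical value allows. Chance gives about 1 in 20 for a single group. The groups share the same 8 libraries and are not independent, so the count of 12 cannot be tested against that rate. The flagged library was scMC38 3 in 8 of the 12. It was high for Slc2a3 (28.6 CPM, the other 3 at most 17.3) and for the log2 ratio of Eno1 to Eno3 (-4.19, the others at most -5.36). It was low for Tpi1 (852 CPM, the others at least 1262), Eno3 (1775 CPM, the others at least 2638), Pkm (1842 CPM, the others at least 2609.7), Phka1 (476 CPM, the others at least 744), Phkb (287 CPM, the others at least 409) and Slc16a3 (236 CPM, the others at least 362). Over the 39 genes, scMC38 3 was the lowest of the 8 libraries for 19 and the highest for 7. The other 4 were Pgk1 in control 4 (766 CPM, the others at most 576), the log2 ratio of Slc2a1 to Slc2a4 in control 4 (-6.77, the others at least -6.01), Pfkfb4 in scMC38 2 (72.1 CPM, the others at most 58.0) and Gbe1 in scMC38 4 (74.5 CPM, the others at most 50.5).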

How the results depend on the processing

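EdgeR called 0 of the 39 genes under every scaling, filter and left-out library run and with the replicate block. Limma-voom also called 0, and DESeq2 called 1 higher and 3 lower. Over all genes, 104 higher and 66 lower calls became 829 and 597 with DESeq2, 25 and 39 without scMC38 1 and 3, and 0 and 0 without control 1 and 2 or without control 2 and 4. Without a filter 69 were higher, and with total counts 216. Leaving out 1 library gave 1 to 59 higher and 1 to 52 lower. With the replicate block 0 were higher and 1 lower. Same-numbered mice did not deviate together (correlations -0.28 to -0.01), so the numbers were not taken to pair mice. The 2 other pathway calls became 5 with total counts, 14 with DESeq2, 0 with the replicate block or without any of these 3 pairs of libraries, and 0 to 2 with 1 library left out. The members' median of 0.02 was 0.10 with total counts, 0.081 without scMC38 1 and 3, -0.054 without control 1 and 2, and -0.043 to 0.067 with 1 library left out. The median of all genes was 0.11 with total counts, -0.010 without scMC38 1 and 3, -0.012 without mitochondrially encoded genes, and -0.019 to 0.016 with 1 library left out. Total counts turned the sign of Slc2a4, Eno1 and Slc16a3, each under 0.11 in size. Isoform ratios passed under no alternative, which fits with 2 mice in a group or the sign-flip test of the block could not have done. In the other fits no ratio could have passed on its own after adjustment. Leaving out 1 library moved Ldhb to Ldha between -0.87 and 1.05 (2.13 without control 1 and 2). The fits without control 2 and 4 and without mitochondrially encoded genes were chosen after seeing the data. The causes of these shifts were not tested.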
